A study of Mus musculus with 4 samples.

Results

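The genes described here are 10 repressors and brakes of osteoblast differentiation, namely Twist1, Twist2, Hes1, Hey1, Tle1, Smurf1, Smurf2, Zfp521, Hdac4 and Tob1. They were chosen by name, and every probe set that the platform annotation assigns to one of these symbols alone was read. That gave 18 of the 45101 probe sets on the array. The RNA came from cultured mouse osteoblasts, the bone-forming cells. Their growth protocol describes them as lacking the IGF-1 receptor, whereas their genotype is entered as IGF-1 null, and the labels do not settle between the ligand and its receptor. Both statements cover the control and the treated cells alike. After growth to confluence and serum starvation, cells received 10 nM insulin for 6, 12 or 24 h, while the control stands at 0 h. No untreated array stands at 6, 12 or 24 h, so insulin and elapsed time cannot be told apart. Each of the 4 groups is 1 Affymetrix array, so no value below has a replicate, a standard deviation or a p-value. The labels do not say whether the cells were a line or a primary culture, or how many animals they came from.

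Osteoblast differentiation is driven by Runx-family and other transcription factors downstream of BMP and Wnt signals, and it is restrained at several levels. Twist1 and Twist2 are basic helix-loop-helix proteins that bind Runx factors and block their activity. Hes1 and Hey1 are helix-loop-helix repressors switched on by Notch receptors, and Tle1 is a Groucho-type corepressor recruited by Hes and Runx proteins. Zfp521 is a zinc finger protein and Hdac4 a class IIa histone deacetylase, and both dampen Runx activity. Smurf1 and Smurf2 are ubiquitin ligases that mark Smad and Runx proteins for degradation, and Tob1 belongs to a family of antiproliferative proteins and inhibits Smad signalling by BMP.

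The promoters of Twist1 and Twist2 are shown because these paralogs differed from the control in opposite directions. Each runs from 250 bases before to 50 bases after the annotated start, from RefSeq on GRCm38.p6, and capitals mark every match to CCAAT or TATAA on either strand.
Twist1, chr12:33957421-33957720, plus strand: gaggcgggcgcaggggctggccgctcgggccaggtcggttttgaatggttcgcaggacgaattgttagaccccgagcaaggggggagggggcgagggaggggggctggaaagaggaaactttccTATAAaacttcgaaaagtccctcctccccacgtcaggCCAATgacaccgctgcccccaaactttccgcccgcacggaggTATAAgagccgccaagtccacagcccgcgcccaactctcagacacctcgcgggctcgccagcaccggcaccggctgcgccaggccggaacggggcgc
Twist2, chr1:91801211-91801510, plus strand: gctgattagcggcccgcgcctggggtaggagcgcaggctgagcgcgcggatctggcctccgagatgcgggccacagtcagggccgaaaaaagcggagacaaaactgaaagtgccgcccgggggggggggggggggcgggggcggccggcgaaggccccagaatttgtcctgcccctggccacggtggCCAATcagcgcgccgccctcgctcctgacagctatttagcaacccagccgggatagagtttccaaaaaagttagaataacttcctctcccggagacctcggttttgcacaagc

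Both windows were rich in G and C, 66.0% in Twist1 and 64.7% in Twist2, against a median of 52.7% over 32851 RefSeq promoters of the same length. Each held 1 CCAAT match, whose first base lay 89 bases before the start in Twist1 and 63 bases before it in Twist2. That motif was found in 37.4% of all promoters. TATAA was matched 126 and 47 bases before the start of Twist1 and nowhere in the Twist2 window, and 24.9% of all promoters held it. Neither window matched the E-box CANNTG, which 72.3% of promoters held. Neither matched TGGGAA, the core bound by the Notch effector Rbpj, which 25.6% held. The N-box CACNAG, a site of Hes proteins, had 1 match in Twist2, 44 bases after the start, none in Twist1, and a match in 42.5% of all promoters. Promoters of 7 of the 10 genes were read, and any on chromosome 18, where Zfp521 lies, was left out. None of the 7 matched the E-box or the Rbpj core. These matches describe the letters in the windows and do not show binding.

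Twist2 was the member with the largest difference from the control, and it was lower on every insulin array. Its single probe set had an intensity of 1691 at 0 h, 361 at 6 h, 339 at 12 h and 276 at 24 h. The 0 h array was high, and the 3 insulin arrays lay close together far below it. The difference from 0 h was -2.23 at 6 h, -2.32 at 12 h and -2.62 at 24 h on the log2 scale, which is 4.69, 4.99 and 6.14-fold lower. Of 11657 genes above a brightness filter, which kept probe sets with a mean intensity of at least 67.8, 70, 71 and 49 had a lower difference than Twist2 at the 3 times. RNA was taken from whole cultures, so fewer cells of a type and less RNA per cell cannot be told apart.

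Twist1 did not follow its paralog. Its single probe set had 649.8 at 0 h, 766 at 6 h, 1013 at 12 h and 809 at 24 h, so the control was the lowest array and the 12 h array the highest. Relative to 0 h it was 1.18, 1.56 and 1.24-fold higher, and it passed 1.5-fold at 12 h alone. The log2 difference of Twist1 from 0 h lay 2.47 above that of Twist2 at 6 h, 2.96 above it at 12 h and 2.93 above it at 24 h. Genes farther from 0 h than Twist1 in either direction made up 63.5%, 31.3% and 55.8% of all genes above the filter, against 4.42%, 4.78% and 3.78% for Twist2. No member other than Twist2 was 1.5-fold lower at any time.

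**Figure D1:**
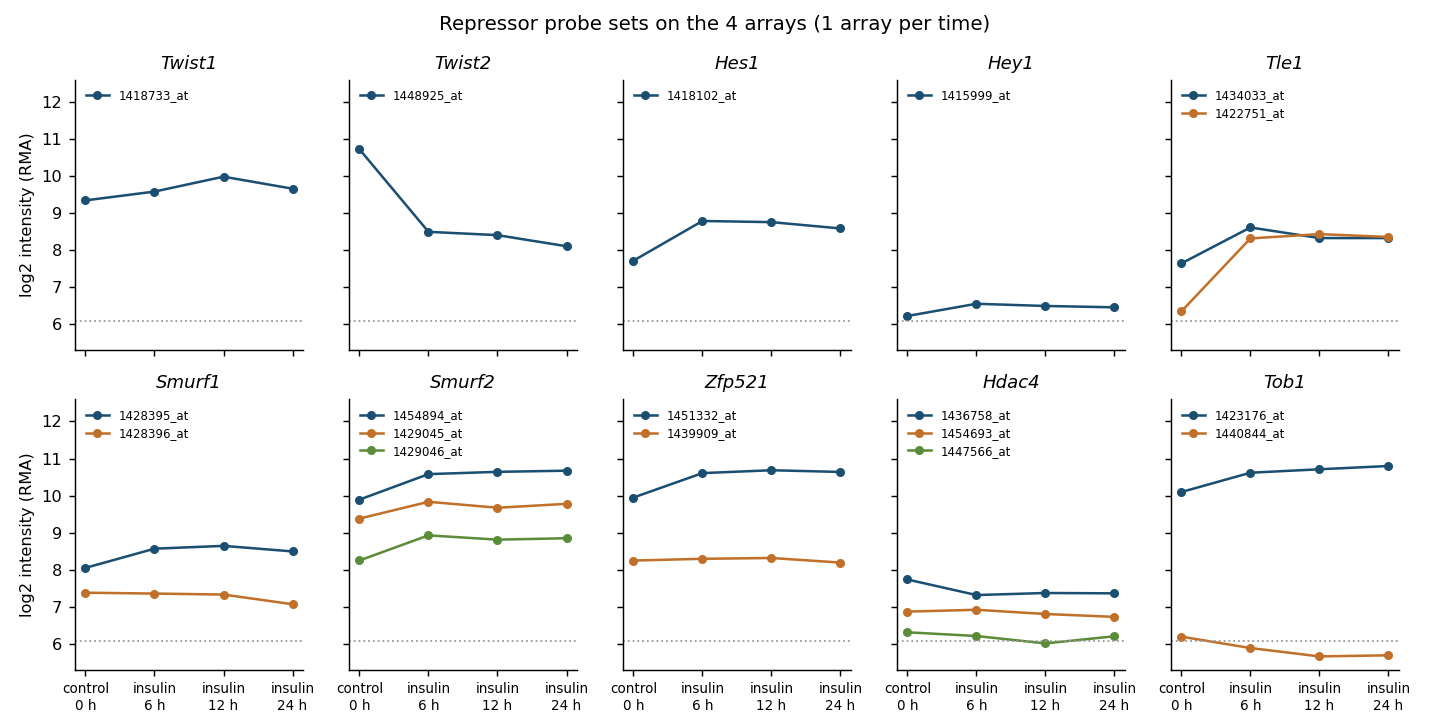
Log2 intensity of all 18 probe sets of the 10 genes (y axis) on the control array at 0 h and the insulin arrays at 6, 12 and 24 h (x axis), with 1 line per probe set and 1 array per point. The dotted line is the brightness filter of 67.8, which was applied to the mean over the arrays. Twist2 drops from 1691 at 0 h to between 276 and 361, the largest change in any panel.

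The Notch effectors were both higher on the insulin arrays, Hes1 by more than Hey1. Hes1, a repressor and one of the direct Notch targets, had 210.3 at 0 h and 442, 433 and 384 at 6, 12 and 24 h. The control was low, all insulin arrays were high, and the gap shrank from 2.10-fold at 6 h to 1.83-fold at 24 h. Hey1, the related hairy-type repressor, was dim throughout with 74.7, 94.0, 90.2 and 87.9. Its differences of 1.26, 1.21 and 1.18-fold stayed under the 1.5-fold threshold, and all its values lay close to the filter, where RMA compresses differences.

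Tle1, the Groucho-type corepressor, was higher on all insulin arrays by both of its probe sets, which gave different sizes. The brighter had 199.8 at 0 h and 392, 321 and 321 at 6, 12 and 24 h, which is 1.96, 1.61 and 1.61-fold higher. The other had 81.4 at 0 h and 319, 346 and 328, which is 3.92, 4.25 and 4.03-fold higher. The first was highest at 6 h and the second at 12 h, so the order of the insulin arrays was not shared. Which of the sizes is closer to the transcript cannot be told from these values.

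Both Smurf ligases had a bright probe set that was higher on the insulin arrays, and Smurf2 was higher by every probe set. The brightest Smurf2 probe set had 949, 1529.5, 1597 and 1631 at 0, 6, 12 and 24 h, or 1.61, 1.68 and 1.72-fold higher. The next had 666, 912, 816 and 877, and the dimmest 304, 487, 449 and 461. In all of them the control was the lowest array, and the folds of these last ran from 1.23 to 1.60. Smurf1 had 265, 379, 399.7 and 360.2 by its brighter probe set, which is 1.43, 1.51 and 1.36-fold higher. Its other probe set had 166, 164, 161 and 134, and was 1.24-fold lower at 24 h. The Smurf1 probe sets therefore disagreed in direction, and the sign of the second at 6 and 12 h turned when a loess curve or the chromosome median was removed.

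Of the nuclear cofactors, Zfp521 was higher by one probe set and Hdac4 was slightly lower. The brighter Zfp521 probe set had 987 at 0 h and 1559, 1644 and 1593 at 6, 12 and 24 h, or 1.58, 1.67 and 1.61-fold higher. The dimmer had 304, 314, 319 and 292, with differences of 1.03-fold higher, 1.05-fold higher and 1.04-fold lower. Hdac4, whose protein moves between cytoplasm and nucleus, had 213 at 0 h and 159, 166 and 164 afterwards by its brightest probe set. That is 1.34, 1.29 and 1.30-fold lower, with the control as the highest array. Its other probe sets had 117, 121, 112 and 106, and 79.4, 74.0, 64.5 and 73.7, and their differences from 0 h ranged from 1.04-fold higher to 1.23-fold lower. The small differences of the dimmer Zfp521 probe set and of the middle Hdac4 probe set turned sign at 1 time each with a loess curve removed. That Hdac4 probe set also turned sign at 6 h with the chromosome median removed.

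Tob1 was higher by its bright probe set and lower by a dim one. The bright one had 1094 at 0 h and 1570.0, 1675 and 1781 at 6, 12 and 24 h, which is 1.43, 1.53 and 1.63-fold higher and the only brightest probe set besides that of Smurf2 to be farther from 0 h at each later time on the higher side. The dim one had 73.1, 59.1, 50.5 and 51.6, and it was the single probe set of the 18 below the filter. The plot of differences from 0 h shows Twist2 alone on the far left and most other probe sets on the right.

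**Figure D2:**
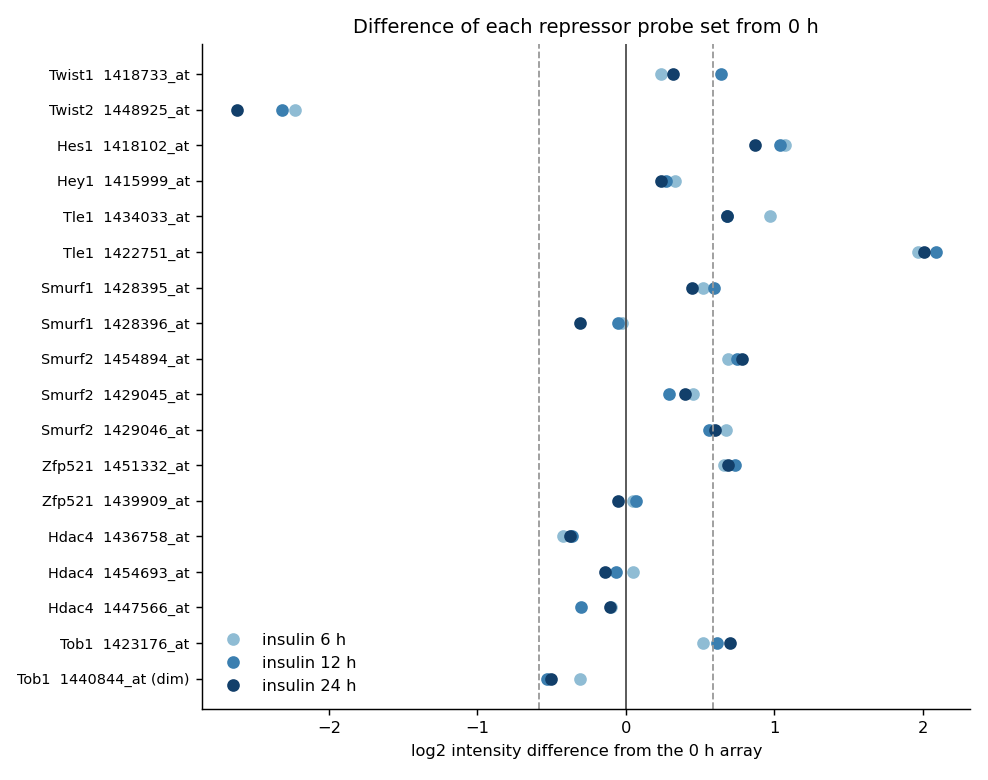
Log2 difference of each of the 18 probe sets (rows) from the 0 h array at 6, 12 and 24 h (points, light to dark). Dashed lines mark 1.5-fold in either direction, and the 1 probe set below the brightness filter is marked as dim. Twist2 lies between -2.23 and -2.62, and the dimmer Tle1 probe set, at 1.97 to 2.09, lies farthest to the right.

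Counts over the 17 probe sets above the filter show how the members lay as a group. At least 1.5-fold higher than 0 h were 6 at 6 h, 8 at 12 h and 7 at 24 h, or 35.3%, 47.1% and 41.2%. Over all 19915 probe sets of 1 gene above the filter the shares were 17.7%, 18.8% and 18.1%. At least 1.5-fold lower was 1 member probe set at each time, that of Twist2, or 5.88%, against 13.7%, 15.5% and 15.2% overall. Probe sets of 1 gene share a transcript, so the count was also made with the brightest probe set of each gene. By that count 4, 7 and 5 of the 10 genes were higher, against 18.9%, 20.7% and 19.8% of 11657 genes, and 1 was lower, against 13%, 13.5% and 13.5%.

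The 4 genes that were 1.5-fold higher at 6 h were Hes1, Smurf2, Tle1 and Zfp521, and Tob1 joined them at 12 and 24 h. Smurf1 and Twist1 passed that size at 12 h only. On all 3 insulin arrays together 5 member probe sets, of Hes1, Smurf2, Tle1 and Zfp521, were higher (29.4%, against 15.7% overall), and Twist2 was lower (11.3% overall). At 2-fold the shares of the members were near those of the whole array. Then 2, 2 and 1 of the 17 were higher, all of them Hes1 or Tle1, where 9.73%, 10.6% and 10.2% of all probe sets were. Twist2 was again the one that was lower, where 5.25%, 6.46% and 5.98% were. The median log2 difference of the 17 was 0.45, 0.56 and 0.40, and that of all probe sets -0.02, -0.01 and -0.03. All these comparisons share the 0 h array.

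Between the insulin arrays the members differed little. Of the 17 probe sets none was 1.5-fold apart between any 2 insulin arrays. Over all probe sets, 0.929% gained that size and 0.688% lost it from 6 to 12 h. From 6 to 24 h these shares were 1.44% and 0.502%, and from 12 to 24 h 0.156% and 0.0854%. A count of 0 is thus close to the background. The largest member difference from 6 to 12 h was that of Twist1, which was 1.32-fold higher at 12 h. From 6 to 24 h it was that of Twist2, which was 1.31-fold lower at 24 h. From 12 to 24 h Twist1 was 1.25-fold lower and Twist2 1.23-fold lower.

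The spread over the insulin arrays, taken as the highest minus the lowest log2 level, was 0.40 for Twist1 and 0.39 for Twist2. Of all probe sets above the filter, 8.91% and 9.81% had a larger spread. The medians were 0.16 for the 17 members and 0.17 for all. Twist1 and Twist2 thus had the widest spread of the members, with a different order of arrays. Twist1 peaked at 12 h, while Twist2 was highest at 6 h and lowest at 24 h. The smallest spread was that of the brightest Hdac4 probe set, at 0.06. With 1 array per time these differences have no measured error.

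**Figure D3:**
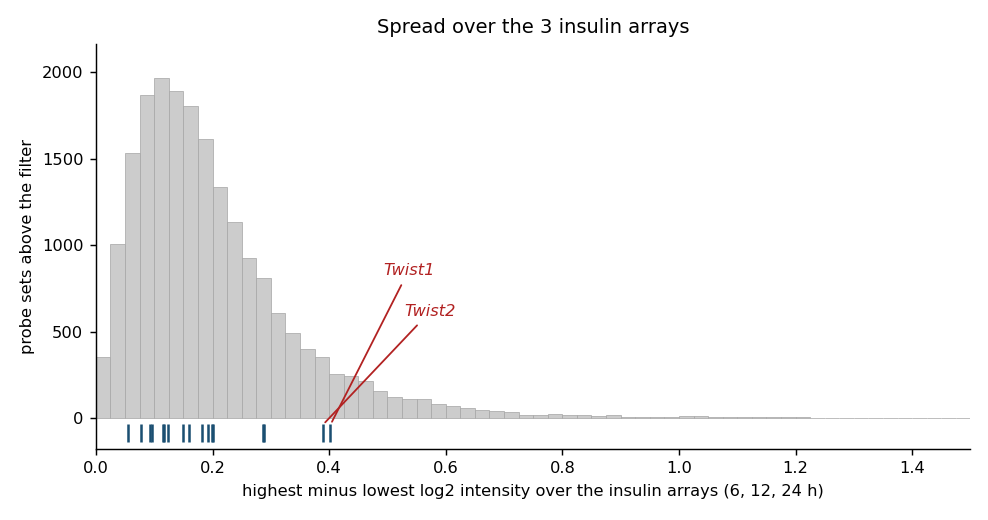
Number of probe sets above the filter (y axis) by the highest minus the lowest log2 intensity over the insulin arrays at 6, 12 and 24 h (x axis). Ticks below the bars are the 17 member probe sets. Twist1 and Twist2, at 0.40 and 0.39, lie farthest right among the members, within the range of the bars.

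Several measures that do not concern the repressors also set the 0 h array apart. Xist, which coats the inactive X chromosome, had 109 at 0 h and 1278 to 1636 on the insulin arrays. The Y-linked Eif2s3y had 12.2 and 295 to 326. Of the osteoblast genes 7 of 10 above the filter were at least 1.5-fold higher at each time, with median log2 differences of 2.06, 2.41 and 2.60, against 18.9%, 20.7% and 19.8% of all genes. Among them Sp7, the factor osterix, had 60.8 at 0 h and 213 at 24 h, and Pth1r, the parathyroid hormone receptor, had 36.9 and 1444. Ibsp, bone sialoprotein, had 202 and 13147, and Msx2, a homeobox factor, 48.5 and 672. Sp7, Pth1r, Msx2, Dlx5 and Alpl, all of them among the 7, were under the filter at 0 h and passed it by their mean. Atf4 went the other way and was 1.43, 1.34 and 1.51-fold lower. The type I collagen gene Col1a2 was bright on every array, at 20828 to 24963. Col1a1, the other type I collagen gene and one of the 7, had 13802 at 0 h and 23754 at 24 h. Its 1 other probe set above the filter pointed the other way. Markers of other cells moved too. Summed over 7 macrophage markers the intensity was 903 at 0 h and 4921, 6099 and 6892 at 6, 12 and 24 h, and 5 of 6 above the filter were higher. The other, Cd14, had 370 at 0 h and was 2.39, 2.42 and 2.28-fold lower. For 4 adipocyte markers the sums were 1016, 2679.7, 4208 and 5449, and for 5 chondrocyte markers 958, 6260.5, 9529 and 10746, with 3 of 4 and 4 of 5 higher. Pparg, the other adipocyte marker, was 2.08, 1.21 and 1.14-fold lower. The largest parts of these sums at 24 h were Lyz2 with 4914, Fabp4 with 3834, Col2a1 with 5209 and Comp with 4051. Ptprc, Cd68, Adipoq and Col10a1 were under the filter at 0 h and passed it by their mean. The 4 endothelial markers summed to 192 to 225 and the 4 skeletal muscle markers to 165 to 209 on all arrays, with 1 of each above the filter. Pecam1 had 13.8 to 20.3 and Myf5 8.74 to 9.96. The part of these differences in the values of the repressors was not tested.

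Whole chromosomes had shifted medians at 0 h, so each member was set beside its own chromosome. Twist2 and Hdac4 lie on chromosome 1, whose 668 genes had a median of 0.26, 0.29 and 0.29 above 0 h at the 3 times. With that median removed Twist2 was 5.59, 6.08 and 7.48-fold lower. Hdac4 was 1.60, 1.57 and 1.58-fold lower by its brightest probe set, past the threshold at each time. The other Hdac4 probe sets were 1.15, 1.27 and 1.34-fold and 1.28, 1.4998 and 1.31-fold lower, under the threshold at each time. Tle1 lies on chromosome 4, with medians of 0.31, 0.37 and 0.33 over 716 genes. Removing them left its brighter probe set 1.58, 1.24 and 1.28-fold higher, under the threshold at 12 and 24 h. Its other probe set was still 3.17, 3.28 and 3.21-fold higher. Hes1, on chromosome 16, was 1.99, 1.90 and 1.72-fold higher, and Smurf2, Zfp521 and Tob1 shifted by at most 0.02 on the log2 scale.

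**Figure D4:**
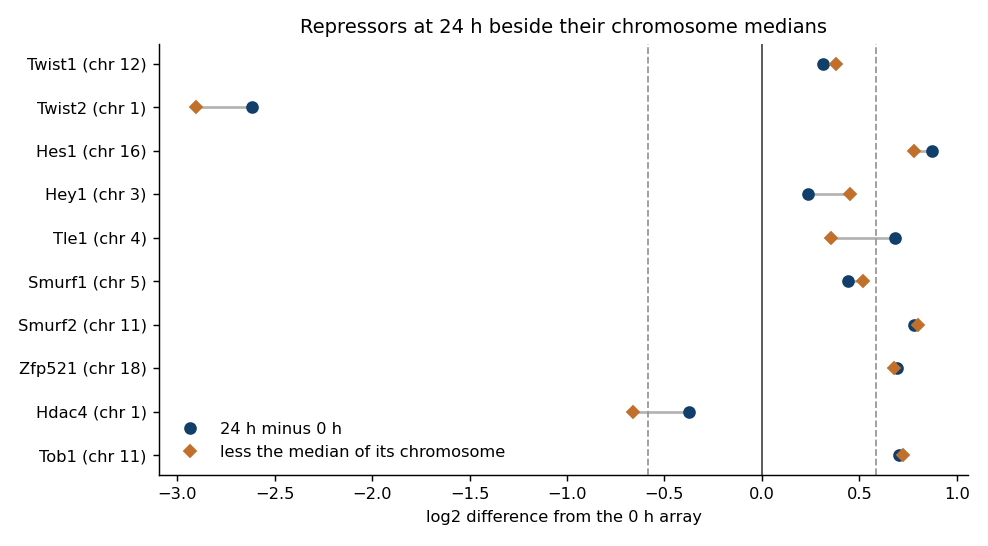
Log2 difference from the 0 h array at 24 h for the brightest probe set of each gene (circles) and the same less the median of the genes of its chromosome (diamonds). Dashed lines mark 1.5-fold. Tle1 moves inside the lines, Hdac4 moves outside them, and Twist2 moves farther from 0.

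The genes beside Twist2 on the chromosome did not share its difference. Twist2 and Hdac4 follow each other in the order of measured genes, and the 5 genes on each side of Twist2 had differences from -0.37 to 0.83 at 24 h, with a median of 0.44. None of the 10 was 1.5-fold lower, and 4 were 1.5-fold higher, namely Hes6, Cops9, Otos and Gpc1. Of all genes above the filter 19.8% were that much higher at 24 h and 13.5% lower. Otos was under the filter at 0 h, with 47.7. Hes6, a relative of Hes1 that counteracts it, had 306, 502, 536 and 514. Around Tle1 the 10 nearest measured genes had medians of 0.65, 0.84 and 0.67, and 6 were 1.5-fold higher at 24 h and none lower. They ranged from -0.06 to 6.00 at 24 h, where the Tle1 probe sets had 0.68 and 2.01. Of the 6 that were higher, Brinp1 and Ptprd were under the filter at 0 h, with 35.4 and 17.0. Around Smurf2 the medians were -0.45, -0.44 and -0.30, opposite in sign to Smurf2 itself.

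**Figure D5:**
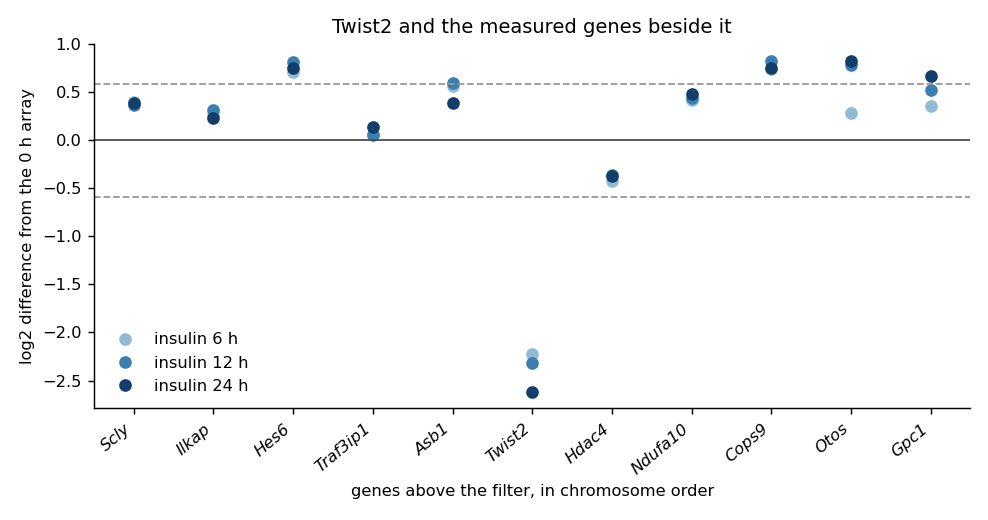
Log2 difference from the 0 h array (y axis) at 6, 12 and 24 h for Twist2 and the 5 genes above the filter on each side of it, in chromosome order (x axis). Dashed lines mark 1.5-fold. Twist2 lies at -2.23 to -2.62, and the 10 neighbours lie between -0.42 and 0.83.

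Genes with a pattern like that of Twist2 were sought by the largest gap in the 3 log2 differences from 0 h, over 4 arrays and 11249 genes. The 5 closest were Ifi47, Oas2, Gem, Gbp7 and Ndufa9, with gaps of 0.07, 0.08, 0.14, 0.16 and 0.18. Ifi47, an interferon-inducible GTPase, had 1317 at 0 h and 271, 265 and 205 at 6, 12 and 24 h. Oas2 and Gbp7 are interferon-induced as well, Gem is a small GTPase, and Ndufa9 is a subunit of respiratory complex I. For Twist1 the 5 closest were Daglb, Flot1, Arhgef25, Cry2 and Vstm2b, with gaps of 0.04 to 0.07. Gaps this small fixed that all were highest at 12 h, as Twist1 was. Cry2, a repressor of the circadian clock, had 182, 224, 282 and 224.

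The partners of the Twist proteins were then read from lists of relatives and pathway genes. Of 11 partners and antagonists 9 were above the filter, and 5 of them were 1.5-fold higher at each time, all of them Id or Scx genes, against 18.9%, 20.7% and 19.8% of all genes. Id3, which sequesters the partners of helix-loop-helix factors, had 80.4 at 0 h and 1909, 2319.6 and 1896 at 6, 12 and 24 h. Id2 had 165, 742, 956 and 795, and Scx, a tendon factor of the same family, 18.8, 106, 104 and 98.6. Scx was under the filter at 0 h and passed it by its mean, and the count of 5 and the list median include it. The genes of the E proteins with which Twist forms dimers, Tcf3, Tcf4 and Tcf12, were not higher by their brightest probe sets, and Tcf4 was 1.48, 1.55 and 1.25-fold lower. The median of the list was 0.98, 1.26 and 0.93, that of all genes 0.01, 0.03 and 0.00.

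Other Notch genes gave a mixed picture beside Hes1. Of 19 listed 12 were above the filter, 4, 4 and 5 were 1.5-fold higher and none was lower. Of all genes 18.9%, 20.7% and 19.8% were that much higher and 13%, 13.5% and 13.5% lower. The median of the list was -0.07, -0.03 and -0.05. Lfng, 1.5-fold higher at 24 h alone, was under the filter at 0 h, with 65.5, and passed it by its mean. The receptor gene Notch3 had 71.4, 287, 356 and 297, the ligand gene Jag1 604, 1671, 2041 and 1858, and Notch1 231, 490.4, 464 and 484. Rbpj, the DNA-binding mediator, had 1404, 1069, 1061 and 1151. The relatives Hes5, Hey2 and Heyl were below the filter.

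Of 32 relatives of the other members above the filter 8 were 1.5-fold higher at each time, or 25%, and 1 was lower, or 3.12%. The 8 and the 25% include Mef2c and Zfp423, which were under the filter at 0 h and passed it by their mean. Over all genes the shares were 18.9%, 20.7% and 19.8% higher and 13%, 13.5% and 13.5% lower. None of 5 other Tle genes reached it. Of 5 other ligases of the Smurf family Wwp1 did, at 2.34, 2.37 and 2.33-fold higher. Of 7 Smad genes the inhibitory Smad6 (3.43, 3.69 and 3.25-fold) and Smad7 (1.95-fold at each time) were higher. Among 5 class IIa deacetylase and Mef2 genes above the filter Mef2c, a factor held in check by Hdac4, was higher, with 44.3 at 0 h, which is under the filter, and 226, 374 and 416 at 6, 12 and 24 h. Relatives of Tob1 went both ways, with Btg1 2.13, 2.02 and 1.86-fold lower and Btg2 1.83, 1.82 and 1.69-fold higher. Zfp423, the paralog of Zfp521, was under the filter at 0 h, with 53.2, and had 104 at 6 h. Ebf2, an early B-cell factor, was 4.24, 4.74 and 4.64-fold higher. Of 3 Runx and partner genes Runx1 was 4.03, 3.98 and 5.02-fold higher, with 1 of its 5 other probe sets above the filter pointing the other way.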

How the data were processed

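The authors deposited linear intensities, 1 for each probe set on each array, made with RMA per the submitters' processing notes. No software version or genome build is given in the sources used here. Log2 was taken, and the 0 h value was subtracted from each insulin array. Probe sets with a mean intensity of at least 67.8, the median over probe sets that are not among the 64 controls, were kept. Symbols came from the platform annotation given for this work, which can be old. It gave 34945 probe sets 1 symbol and 932 several, and 9160 are unnamed here. Genes were represented by their brightest probe set. RefSeq GRCm38.p6 gave chromosomes for 11638 of 11657 genes, gene order and promoters.

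Fold sizes were counted and no test was made, since every group is a single array. The number of arrays limits the precision. Members, gene lists and thresholds were chosen with earlier results of these data known. The genes named besides the members were up to 3 per list with the largest mean difference of at least 1.5-fold, Sp7, and the 5 nearest patterns to each Twist gene, with predicted transcripts passed over. Genes beside the members on the chromosome, and Hes5, Hes6, Hey2, Heyl, Tcf3, Tcf4, Tcf12, Rbpj, Pecam1, Myf5, Col1a2 and the sex-linked genes, were chosen after values were seen. So were Dlx5, Alpl, Atf4, Lfng, Col1a1 and the other named markers of other cells. Genes on the lists without a probe set of 1 symbol are not analysed here. Counting steps were tested on simulated data. Python 3.11.15, numpy 2.4.6, pandas 2.3.3, statsmodels 0.14.6 and matplotlib 3.10.9 were used.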

Additional observations from a re-analysis of the deposited data

How the results depend on the processing

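Alternatives for the Twist differences were quantile normalization, centring on medians, a loess fit (span 0.3) taken off, 16 added before log2 and removal of chromosome medians. The counts were also made with other filters, thresholds, probe set rules and reference arrays. Over the main setting and the first 5 alternatives the difference of Twist2 from 0 h ran from -2.48 to -2.18 at 6 h, -2.60 to -2.27 at 12 h and -2.90 to -2.55 at 24 h. That of Twist2 less Twist1 ran from -2.76 to -2.41, -3.28 to -2.89 and -3.28 to -2.86. The largest member difference between insulin arrays stayed between 0.29 and 0.42 without a filter and under the same alternatives other than chromosome medians. Values were taken to have moved when they shifted by 0.58 or more on the log2 scale, or counts by more than 1.5 times, and 98 of 111 recomputed values had not. Some of the 111 could not move, since centring on medians shifts Twist1 and Twist2 alike. The 98 is therefore no measure of stability. With quantile normalization 5 member probe sets in place of 8 were 1.5-fold higher at 12 h. With a 2-fold threshold the counts of higher probe sets were 2, 2 and 1. With chromosome medians removed 2 were lower at each time, the brightest Hdac4 probe set besides that of Twist2. With the 6, 12 or 24 h array as the reference 0 were higher and 0 lower on all 3 other arrays. That result was fixed in advance, because no member probe set was 1.5-fold apart between any 2 insulin arrays. Both Twist genes have 1 probe set, so other probe set rules gave no other value for them. No paired analysis was possible because each group has 1 array. Signal over background limits Hey1, the dimmest Hdac4 probe set, the dim Tob1 probe set, and the 0 h values of Scx, Mef2c, Zfp423, Sp7, Pth1r and Msx2. It also limits the 0 h values of Dlx5, Alpl, Lfng, Ptprc, Cd68, Adipoq, Col10a1, Otos, Brinp1 and Ptprd.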
